A study of Homo sapiens with 6 samples.

Results

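The genes described here are 32 genes of sterol and fatty acid synthesis, taken by name in AGS cells, an established human gastric adenocarcinoma line. They form a sterol branch of 20 genes and a fatty acid branch of 12. A gene was measured when at least 1 probe set of the array named it alone, which held for 31 of the 32, out of 18656 genes in all. The exception was HSD17B7, a reductase of late sterol synthesis, whose 14 probe sets all name its pseudogene HSD17B7P2 as well. MSMO1 was read under its older symbol SC4MOL and SC5D under SC5DL. The inhibitor group (3 arrays) received an anti-miR oligonucleotide against miR-25-3p, and the control group (3 arrays) a non-targeting control RNA. Both groups are wild-type AGS cultures that went through the same 2 lipid transfections 24 h apart, with RNA harvested 48 h after the first. The comparison asks whether transcripts of lipid synthesis differ when cells receive the inhibitor. The level of the mature microRNA was not analysed here, so how far it was inhibited is not known from these values.

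Cells make cholesterol from acetyl-CoA through mevalonate, squalene and lanosterol, and they make fatty acids from the same acetyl-CoA through malonyl-CoA and palmitate. Most of these genes are transcribed under the control of the sterol regulatory element-binding proteins, membrane-bound factors encoded by SREBF2 (mainly sterol genes) and SREBF1 (mainly fatty acid genes). When membrane cholesterol is low, the escort protein SCAP carries them from the endoplasmic reticulum to the Golgi, where the proteases encoded by MBTPS1 and MBTPS2 release the active part. INSIG1 and INSIG2 hold SCAP back when sterols are plentiful. The target genes therefore tend to be switched as a group.

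The microRNA that the inhibitor is directed against is shown first, beside the 2 microRNAs carried inside the genes SREBF2 and SREBF1, because these host genes are members. Capitals mark the seed, bases 2 to 8, through which a microRNA mainly recognises its targets. The sequences are RefSeq's, on GRCh38.p14: miR-25-3p at chr7:100093571-100093592 on the minus strand, miR-33a-5p at chr22:41900949-41900969 on the plus strand, within SREBF2, and miR-33b-5p at chr17:17813897-17813916 on the minus strand, within SREBF1.
miR-25-3p: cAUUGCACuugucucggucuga
miR-33a-5p: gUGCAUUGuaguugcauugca
miR-33b-5p: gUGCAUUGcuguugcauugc
The microRNAs of SREBF2 and SREBF1 share 1 seed with each other and not with miR-25-3p. Neither was analysed here.

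No member was called in either direction. Limma, a linear model with variances shared over genes, gave 0 of 31 members an adjusted p under 0.05, and the same was true of all genes (0% called higher and 0% called lower). The smallest adjusted p among members was 0.79, equal to the smallest among all genes. Values are log2 expression values, and a difference is inhibitor minus control on that scale, with its moderated standard error (SE). At an unadjusted p under 0.05, 2 members were higher (EBP and SC5D, 6.45% of those measured, against 2.95% of all genes) and 1 was lower (MVD, 3.23% against 3.16%). Together these were 9.68% of members against 6.12% of all genes, and leaving out single arrays changed the counts to between 0 and 2 in each direction. The 3 inhibitor arrays lay wholly above the 3 control arrays for EBP and ELOVL5 (6.45% of members, against 5.19% of all genes) and wholly below them for MVD, SREBF2 and LPIN1 (9.68% against 7.68%). These shares are near those of all genes.

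The differences were small. They ran from -0.24 for MVD to 0.32 for SC5D, and SC5D alone reached 1.2-fold, a size met by 6.63% of all genes. The 95% confidence interval of the difference lay inside 1.5-fold in both directions for 30 of 31 members, SC5D being the exception, and for 92.7% of all genes. These intervals are not adjusted for the number of genes, and a p that misses the threshold does not show that a gene was the same in both groups. The count includes FADS1, ELOVL5 and ME1, which were among the dimmest 30% of genes. Their intervals describe means over mostly dim probe sets and need not bound a change in the transcript. The spread between replicates was modest, with a median SD of 0.10 over members and 0.13 over all genes.

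**Figure D1:**
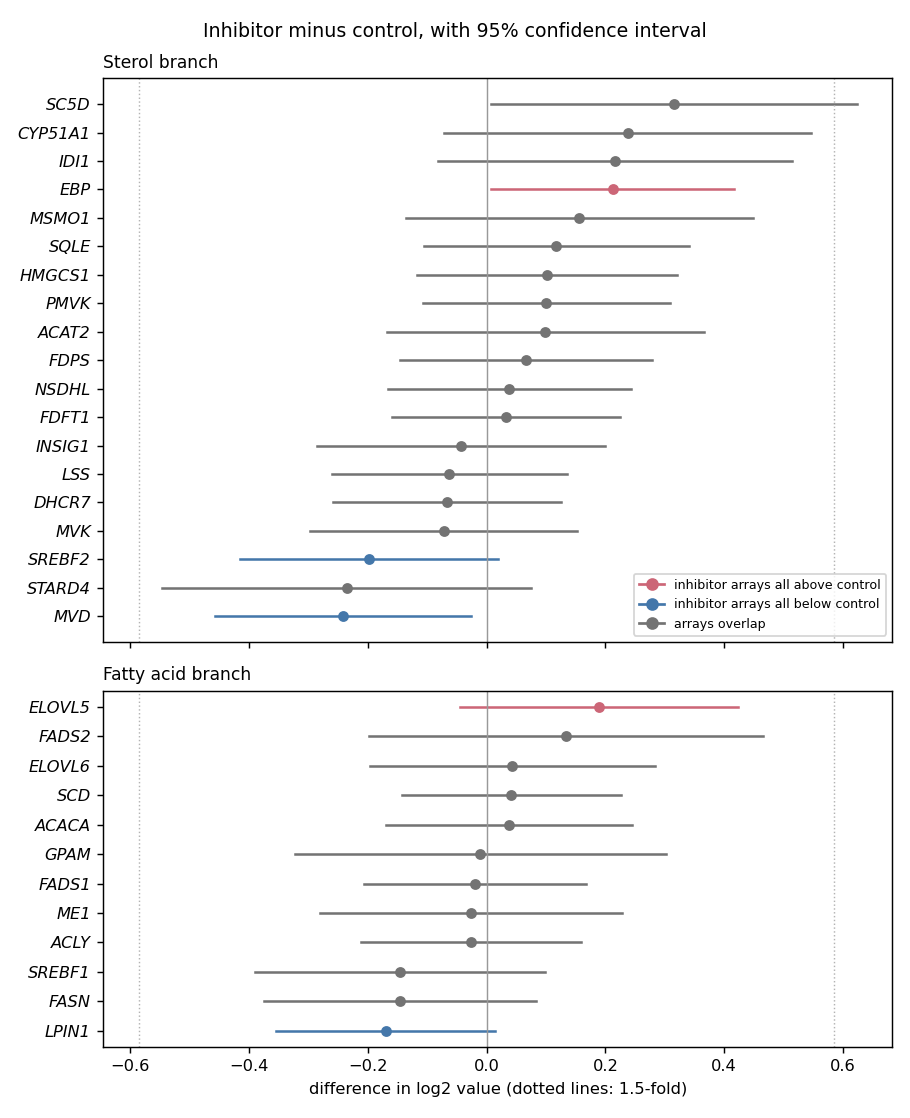
Difference between inhibitor and control arrays in log2 value for the 31 measured genes, by branch, with its 95% confidence interval (n = 3 arrays a group). Intervals cross 0 for all genes but SC5D, EBP and MVD, and dotted lines mark 1.5-fold, which the upper end of SC5D alone passes.

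In the sterol branch 12 of 19 measured genes had a positive and 7 a negative difference, with a median of 0.066, while 50.5% of all genes were positive, with a median of 0.0021. In the fatty acid branch 5 of 12 were positive and 7 negative, with a median of -0.015. The mean level of the sterol branch was 7.94, 8.06 and 8.08 in control replicates 1, 2 and 3 and 8.06, 8.02 and 8.12 in inhibitor replicates 1, 2 and 3, so the groups overlapped and control replicate 1 was the lowest array. The fatty acid branch had 6.66, 6.68 and 6.75 in control and 6.72, 6.69 and 6.65 in inhibitor arrays, again with overlap.

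Control replicate 1 stood apart from the other arrays, with a mean correlation over all genes of 0.9915 to them against 0.9933 to 0.9938 for the others. It was the lowest of the 6 arrays for 11 of 31 members (35.5%) and for 27.0% of all genes. Without it, 11 of 19 sterol genes and 4 of 12 fatty acid genes had a positive difference, with medians of 0.039 and -0.023. Over all genes, 8849 of 18656 were positive without it, against 9427 with all arrays, and the median was -0.0090. Part of any drop in a list without this array is therefore shared by all genes. Its part in the single results below was not tested, and values without it are given beside many of them. Replicates are biological replicates per the labels, without further detail, so the p values measure the spread between these samples. In a bulk sample, fewer cells of a type and less RNA per cell cannot be told apart.

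**Figure D2:**
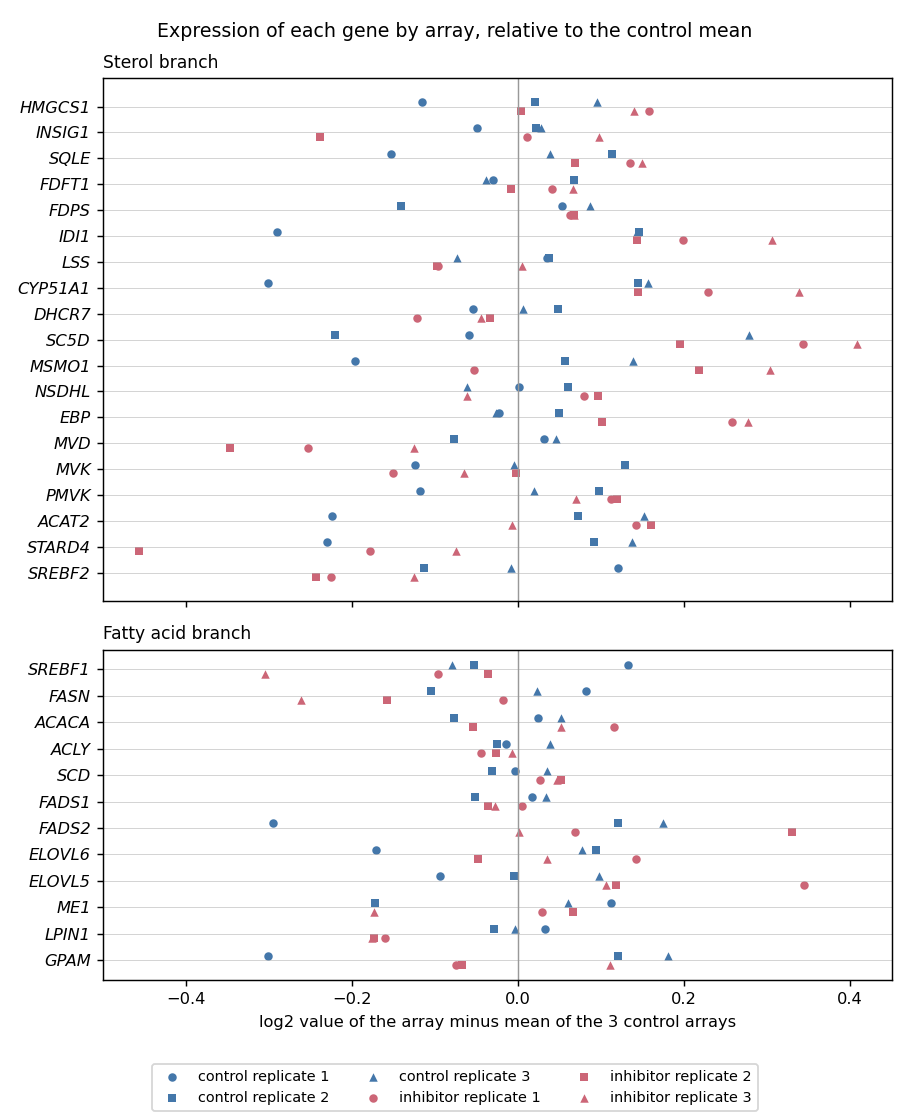
Log2 value of each array minus the mean of the 3 control arrays, by gene and branch, with control arrays in blue and inhibitor arrays in red. Control replicate 1 (blue circle) sits at the far left for IDI1, CYP51A1, FADS2 and GPAM, whereas LPIN1 shows both groups tightly bunched and apart.

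SREBF2, which encodes the main activator of sterol genes, was lower in every inhibitor array than in any control array. Its values were 8.24, 8.01 and 8.11 in control replicates 1, 2 and 3 and 7.90, 7.88 and 7.997 in inhibitor replicates 1, 2 and 3. The gap between the lowest control and the highest inhibitor array was narrow, since control replicate 2 and inhibitor replicate 3 nearly met. The difference was -0.20 (SE 0.096, 0.872-fold, unadjusted p 0.0698 in limma, adjusted p 0.79), and 19 of its 21 probe sets were negative. Without control replicate 1 it was -0.14.

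The promoter of SREBF2 is shown because the gene is itself under sterol control. The window runs from 250 bases before to 50 after the RefSeq start (chr22:41832855-41833154, plus strand, GRCh38.p14), and capitals mark matches to the sterol regulatory element TCACNCCAC and to the CCAAT box, which binds the factor NF-Y, searched on both strands.
SREBF2: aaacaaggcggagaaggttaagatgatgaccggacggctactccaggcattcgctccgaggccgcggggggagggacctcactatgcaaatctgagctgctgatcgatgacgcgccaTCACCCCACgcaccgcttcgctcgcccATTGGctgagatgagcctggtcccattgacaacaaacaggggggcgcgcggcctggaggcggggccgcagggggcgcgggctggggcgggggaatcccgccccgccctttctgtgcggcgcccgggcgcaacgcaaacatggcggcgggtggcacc
The match to TCACNCCAC begins 133 bases before the start, with 1 CCAAT box in reverse (ATTGG) downstream of it. Of the 28 members with a window in the table, SREBF2 is the one that holds TCACNCCAC, which 1.39% of all genes in the table do (1.13% of all windows). The CCAAT box is common among them: 15 of 17 sterol genes (88.2%) and 6 of 11 fatty acid genes (54.5%) hold it. Of the 27305 genes with a promoter window 39.7% hold it, as do 34.6% of all windows. That set is larger than the 18656 genes measured and is not limited to them. GGGCGG, the core letters of an Sp1 site, occurs in 16 of the 17 and 10 of the 11, against 48.3% of all genes with a window. A match describes letters in this window and shows neither binding nor its absence.

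SREBF1, the counterpart for fatty acid genes, had 7.44, 7.25 and 7.22 in control and 7.21, 7.27 and 6.9995 in inhibitor arrays. The groups overlapped, with inhibitor replicate 2 above control replicates 2 and 3. The difference was -0.15 (SE 0.11), with 15 of 21 probe sets negative, and -0.079 without control replicate 1. On its brightest probe set it was -0.020. INSIG1, the retention factor and itself a strongly sterol-controlled gene, had 8.49, 8.56 and 8.57 in control arrays. Its inhibitor arrays spanned them, at 8.55, 8.30 and 8.64, and the difference was -0.043 (SE 0.11), with a 95% interval from -0.29 to 0.20, and -0.068 without control replicate 1.

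The genes that process these factors were read from a list of 10, of which 9 were measured. None was called, 4 were positive and 5 negative, and the median was -0.017. The inhibitor arrays lay wholly below the control arrays for 2 of the 9, against 7.68% of all genes. They lay wholly above for 0 of the 9, against 5.19% of all genes. Without control replicate 1, 1 of the 9 was positive and the median was -0.053. SCAP, the escort, was lower in all inhibitor arrays: 8.07, 8.02 and 7.98 in control against 7.78, 7.82 and 7.65 in inhibitor arrays. Its difference of -0.27 (SE 0.089, 0.828-fold, unadjusted p 0.0140 in limma, adjusted p 0.79) rested on 25 of 29 negative probe sets and was -0.25 without control replicate 1. MBTPS1, named after its values were seen because it was the other gene of the list without overlap, had 8.42, 8.53 and 8.55 against 8.31, 8.41 and 8.39, with control replicate 1 and inhibitor replicate 2 almost level. Its difference was -0.13 (SE 0.088). MBTPS2, the other protease, had the smallest p among the positive genes of the list, at 0.16 (SE 0.13), which became 0.035 without control replicate 1.

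**Figure D3:**
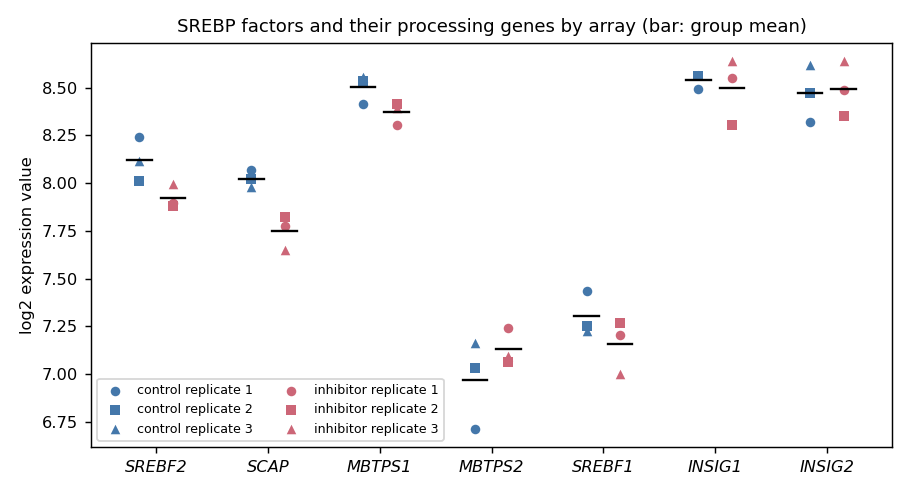
Log2 expression values of SREBF2, SREBF1 and 5 genes of their processing in each array, control in blue and inhibitor in red, with bars for group means. SREBF2, SCAP and MBTPS1 have all inhibitor arrays below all control arrays, as do 7.68% of all genes, and the other 4 genes overlap. RNF139, UBXN4, ERLIN1, ERLIN2 and SPRING1 of the same list are not plotted and overlap too.

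The early steps of sterol synthesis had no common direction. HMGCS1, which makes HMG-CoA, had 9.48, 9.61 and 9.69 in control and 9.75, 9.60 and 9.73 in inhibitor arrays. Inhibitor replicate 2 fell among the controls, and the difference was 0.10 (SE 0.096), or 0.043 without control replicate 1. ACAT2, the thiolase before it, was at 0.099 (SE 0.12) and turned to -0.013 without control replicate 1. Of the enzymes that turn mevalonate into the isoprene unit, mevalonate kinase (MVK) was at -0.072 (SE 0.099) and phosphomevalonate kinase (PMVK) at 0.10 (SE 0.091). Without control replicate 1 these were -0.13 for MVK and 0.042 for PMVK.

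MVD, the decarboxylase that completes the isoprene unit, was the member with the smallest unadjusted p. It had 7.52, 7.41 and 7.54 in control and 7.24, 7.14 and 7.36 in inhibitor arrays. The groups did not overlap, and replicate 2 was the lowest in each group. The difference was -0.24 (SE 0.095, 0.846-fold, unadjusted p 0.0322 in limma, adjusted p 0.79), on 10 of 11 negative probe sets, and -0.23 without control replicate 1. IDI1, the isomerase that follows it, went the other way. It had 6.89, 7.32 and 7.32 in control and 7.38, 7.32 and 7.48 in inhibitor arrays, so control replicate 1 was far below the rest. Its difference of 0.22 (SE 0.13) became 0.071 without that array and -0.22 with the median of its 9 probe sets.

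FDPS and FDFT1, which make farnesyl diphosphate and squalene, were at 0.066 (SE 0.093) and 0.033 (SE 0.084), or 0.093 and 0.018 without control replicate 1. SQLE, which oxidises squalene, had 9.68, 9.95 and 9.87 in control and 9.97, 9.90 and 9.98 in inhibitor arrays. Control replicate 1 was again the lowest, and the difference of 0.12 (SE 0.098) was 0.041 without it. LSS, which closes the ring to lanosterol, had 7.66, 7.66 and 7.55 in control and 7.53, 7.53 and 7.63 in inhibitor arrays, with overlap and a difference of -0.063 (SE 0.087).

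Of the 4 largest positive differences of the branch, 3 belonged to steps from lanosterol to cholesterol (SC5D, CYP51A1 and EBP) and the other to IDI1. The other measured members of these late steps, MSMO1, NSDHL and DHCR7, ran from -0.067 to 0.16. SC5D, a sterol desaturase, had 7.39, 7.22 and 7.72 in control and 7.79, 7.64 and 7.85 in inhibitor arrays. Inhibitor replicate 2 lay below control replicate 3, so the groups overlapped. The difference was 0.32 (SE 0.14, 1.24-fold, unadjusted p 0.0456 in limma, adjusted p 0.79), with 8 of 10 probe sets positive, and 0.29 without control replicate 1. Leaving out the other control arrays moved it further, to 0.21 without replicate 2 and 0.45 without replicate 3. It was 0.070 on the brightest probe set and 0.43 with the median of probe sets. The largest difference of a single probe set was 1.24. There control replicate 2 read 6.09, against 8.26 and 8.38 in control replicates 1 and 3, and this probe set raises the mean.

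EBP, the sterol isomerase one step earlier, had 8.24, 8.31 and 8.24 in control and 8.52, 8.36 and 8.54 in inhibitor arrays. No array overlapped, although inhibitor replicate 2 was close to control replicate 2. The difference was 0.21 (SE 0.090, 1.16-fold, unadjusted p 0.0442 in limma, adjusted p 0.79), and 0.20 without control replicate 1. Its probe sets disagreed, with 5 of 8 positive and the brightest at -0.073. CYP51A1, the lanosterol demethylase, had 7.48, 7.93 and 7.94 in control and 8.01, 7.93 and 8.12 in inhibitor arrays. All 4 of its probe sets were positive, but its difference of 0.24 (SE 0.14) rested largely on the low control replicate 1 and was 0.087 without it. The methylsterol oxidase gene MSMO1 had 0.16 (SE 0.13, 0.058 without control replicate 1), the dehydrogenase NSDHL 0.038 (SE 0.090) and DHCR7, the last reductase, -0.067 (SE 0.085).

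MVD and EBP, the members without overlap that act in the sterol pathway itself, are on opposite sides, and their promoter windows are shown for comparison with that of SREBF2, with the same capitals (MVD at chr16:88663042-88663341 on the minus strand, EBP at chrX:48521558-48521857 on the plus strand, RefSeq, GRCh38.p14).
MVD: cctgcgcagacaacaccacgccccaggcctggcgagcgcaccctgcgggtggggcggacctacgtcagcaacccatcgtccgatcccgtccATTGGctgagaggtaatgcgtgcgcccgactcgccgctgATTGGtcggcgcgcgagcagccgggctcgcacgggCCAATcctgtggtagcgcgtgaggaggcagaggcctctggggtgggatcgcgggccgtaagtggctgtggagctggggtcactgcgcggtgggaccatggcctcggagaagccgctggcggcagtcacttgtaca
EBP: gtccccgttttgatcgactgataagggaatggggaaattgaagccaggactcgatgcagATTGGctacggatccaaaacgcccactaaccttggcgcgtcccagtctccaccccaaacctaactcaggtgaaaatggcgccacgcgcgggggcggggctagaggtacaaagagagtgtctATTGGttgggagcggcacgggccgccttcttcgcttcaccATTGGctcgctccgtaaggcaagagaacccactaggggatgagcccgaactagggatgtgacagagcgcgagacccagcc
Each of the 2 windows holds 3 CCAAT boxes and no match to TCACNCCAC. Neither gene was called, and whether promoter letters relate to the direction of a difference was not tested.

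STARD4, a cytosolic carrier of cholesterol, had 6.38, 6.71 and 6.75 in control and 6.44, 6.16 and 6.54 in inhibitor arrays. Control replicate 1 was low here too, below inhibitor replicates 1 and 3, so the groups overlapped. The difference was -0.24 (SE 0.14), on 9 of 10 negative probe sets, and -0.35 without control replicate 1. It was smaller, at -0.13, without inhibitor replicate 2. Among 9 measured genes of sterol uptake and traffic, none was called, 5 were positive and 4 negative (4 positive without control replicate 1). GRAMD1A, which moves cholesterol from the plasma membrane to the endoplasmic reticulum, had the smallest p among the negative ones, at -0.24 (SE 0.088, unadjusted p 0.0239 in limma), without overlap and with 16 of 17 probe sets negative. LIPA, the lysosomal lipase, the smallest among the positive ones, at 0.074 (SE 0.10), which was -0.011 without control replicate 1. Of 7 other measured sterol enzymes and related genes, none was called. GGPS1, which makes geranylgeranyl diphosphate, was at 0.21 (SE 0.10), with no overlap, and TM7SF2, a sterol reductase, at -0.18 (SE 0.11), or -0.10 without control replicate 1.

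In the fatty acid branch, ACLY and ACACA, at the start of the main chain, had small differences. ACLY, which makes cytosolic acetyl-CoA, had 10.07, 10.06 and 10.12 in control and 10.04, 10.06 and 10.08 in inhibitor arrays, a difference of -0.026 (SE 0.081) with a 95% interval from -0.21 to 0.16. ACACA, which makes malonyl-CoA, had 8.32, 8.22 and 8.35 in control and 8.41, 8.24 and 8.35 in inhibitor arrays, a difference of 0.038 (SE 0.091). The groups overlapped for both genes, and both intervals lie inside 1.5-fold.

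FASN, the fatty acid synthase, had 8.96, 8.77 and 8.90 in control and 8.86, 8.72 and 8.62 in inhibitor arrays. Inhibitor replicate 1 fell among the controls. The difference was -0.15 (SE 0.10), with 32 of 43 probe sets negative, and -0.10 without control replicate 1. SCD, which places a double bond in saturated fatty acids, had 10.21, 10.19 and 10.25 in control and 10.24, 10.27 and 10.26 in inhibitor arrays. Its values were the tightest in the branch apart from LPIN1, and its difference was 0.042 (SE 0.081). ELOVL6, which lengthens palmitate, was at 0.043 (SE 0.11) and turned to -0.042 without control replicate 1.

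The genes of polyunsaturated fatty acid synthesis had low means over their probe sets, although single probe sets of FADS2 and FADS1 averaged up to 6.80 and 6.62. FADS1, a desaturase, had 3.88, 3.81 and 3.90 in control and 3.87, 3.83 and 3.83 in inhibitor arrays, a difference of -0.019 (SE 0.082). FADS2, the desaturase before it, had 4.73, 5.15 and 5.20 in control and 5.10, 5.36 and 5.03 in inhibitor arrays, a difference of 0.13 (SE 0.15) that was -0.014 without control replicate 1. ELOVL5, the elongase that acts between them, had 2.99, 3.08 and 3.18 in control and 3.42, 3.20 and 3.19 in inhibitor arrays. All its inhibitor arrays lay above all control arrays, by little, and the difference was 0.19 (SE 0.10).

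FADS1, FADS2, ELOVL5 and ME1 were the 4 members below the median gene value of the arrays (5.74 to 5.80), a level that also depends on how well each probe set hybridizes. The brightest of the 10 probe sets of ELOVL5 averaged 4.70 over the arrays, and its difference came mainly from 2 dim probe sets at 1.22 and 1.00. ME1, the malic enzyme that supplies NADPH, was dim as a mean over 17 probe sets, although its brightest averaged 9.17 and the next 5.90. On that probe set its difference was 0.017, against -0.026 (SE 0.11) for the gene, which was 0.030 without control replicate 1.

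Of the members that lead fatty acids into glycerolipids, LPIN1, a phosphatidate phosphatase, had 6.86, 6.80 and 6.83 in control and 6.67, 6.66 and 6.65 in inhibitor arrays. The inhibitor arrays lay together below the control arrays, with the smallest spread of the branch. The difference was -0.17 (SE 0.081, 0.889-fold, unadjusted p 0.0664 in limma, adjusted p 0.79), and 16 of 21 probe sets were negative. It was -0.15 without control replicate 1. On the brightest probe set it was -0.58 with a wide SE of 0.38, and there the groups overlapped. GPAM, which starts glycerolipid synthesis, had -0.010 (SE 0.14), and -0.16 without control replicate 1.

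Among 22 other genes of fatty acid and glyceride metabolism none was called, 9 were positive and 13 negative, with a median of -0.023. Without control replicate 1, 6 were positive and the median was -0.063. ACACB, the mitochondrial counterpart of ACACA, had 0.19 (SE 0.11), and ELOVL2, an elongase of polyunsaturated fatty acids, -0.27 (SE 0.12) at dim group means (control 3.76, inhibitor 3.49). Liver X receptor genes and their efflux targets had 6 of 9 positive (5 without control replicate 1) and none called. APOE, an apolipoprotein, was at 0.28 (SE 0.15) on 2 probe sets of opposite sign, and the receptor NR1H2 at -0.11 (SE 0.10).

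Below the gene level, 0 of the 485 probe sets of members were called, as were 0% of all named probe sets. At an unadjusted p under 0.05 there were 10 higher and 11 lower, 4.33% of members' probe sets against 6.21% of all. Of the members' probe sets 46.2% were positive, against 49.7% of all. The sterol branch had 103 positive and 106 negative probe sets, although 12 of its 19 genes had a positive mean.

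**Figure D4:**
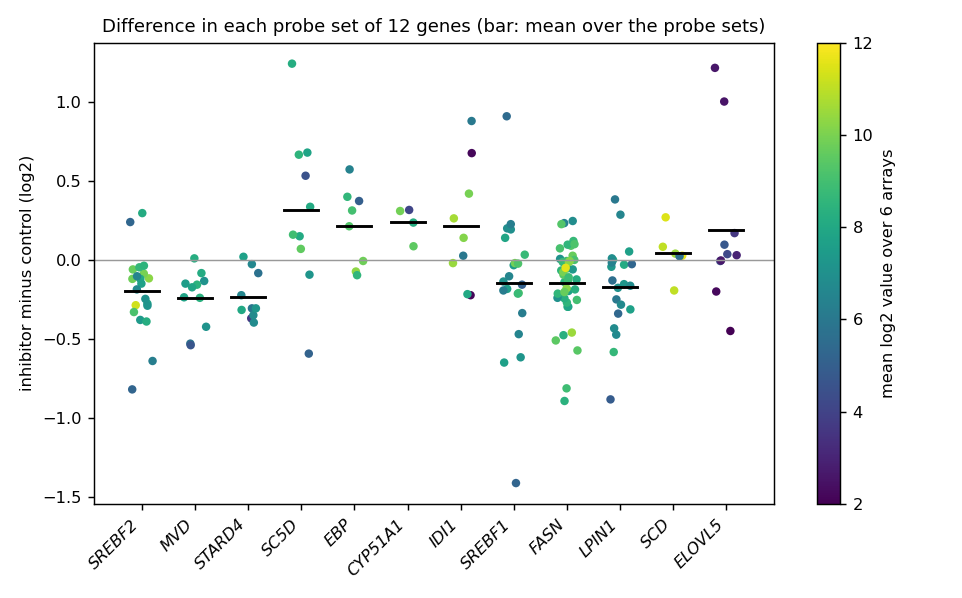
Difference between inhibitor and control arrays in each probe set of 12 genes, coloured by its mean log2 value over the 6 arrays, with bars for the gene means. Nearly all probe sets of SREBF2 (19 of 21), MVD (10 of 11) and STARD4 (9 of 10) lie below 0, whereas those of EBP and SREBF1 fall on both sides.

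The identity of the cells was checked with marker lists. The 6 epithelial markers, among them KRT8, KRT18 and EPCAM, had mean levels of 10.1 in control and 10.2 in inhibitor arrays, 3 of them positive and 3 negative. EPCAM, an epithelial adhesion molecule, was higher in every inhibitor array than in any control array, at 10.29, 10.27 and 10.51 in control and 10.55, 10.52 and 10.63 in inhibitor arrays, a difference of 0.21 (SE 0.098). Adipocyte markers, of interest because fat cells are rich in these pathways, had summed log2 levels over 6 genes of 24.7 to 26.0 in control and 25.4 to 25.7 in inhibitor arrays. Their defining members ADIPOQ and FABP4 were at 3.27 and 1.55 in control arrays, and PPARG, which other cells also express, at 7.02. Hepatocyte markers summed to 25.7 to 27.2 and 26.0 to 26.9, with ALB at 3.00 and APOA1 at 5.16 in control arrays but APOA2 at 7.86, above the median gene. Over 6 fibroblast markers the sums were 24.8 to 26.1 and 25.1 to 25.9, and over 5 leukocyte and blood markers 24.3 to 24.9 and 24.7 to 24.9. The brightest of these were COL1A1, at 6.39 in control arrays, and LYZ, at 8.84, while PTPRC, which marks leukocytes, was at 2.55. In each of these 4 lists the ranges of the groups overlapped and no gene was called. FABP4 and ALB had an unadjusted p under 0.05 in limma, with differences of 0.24 (SE 0.087) and 0.28 (SE 0.11) at these dim levels. The part of these markers in the results above was not tested.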

How the data were processed

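RNA of 6 AGS cultures (3 per group) was hybridized to Affymetrix Human Gene 1.0 ST arrays. The deposited values are log2 expression per exon-sized probe set. The submitters' processing notes name RMA, with Transcriptome Analysis Console and Affymetrix Expression Console, and versions, settings and build are not given in the sources used here. RMA gives arrays nearly the same distribution, so a shift of most genes would be hidden. Precision is limited by having 3 arrays a group.

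Of 257430 probe sets, 224320 had 1 gene symbol, 10159 several and 22951 none in the platform annotation. Old symbols were updated through RefSeq (2533 of 18701). A gene's value was the mean of its probe sets. All 18656 genes were fitted without a block in limma 3.58.1 (R 4.3.3; lmFit, eBayes), with Benjamini-Hochberg adjustment over all genes, and the fit was tested on simulated data. Lists are described by counts and medians.

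Members and lists were chosen with earlier results of these data known. Genes given in full were 6 fixed points of each branch, the 3 members with the smallest p each way in each branch and members without overlap; of other lists, 1 gene each way.

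Alternatives covered probe-set combination, dim features, normalization, variance estimates, the replicate block and leaving out each array. For genes and lists outside the members, the value without control replicate 1 was added after the data were seen. Promoters (250 bases before to 50 after the start) and microRNAs came from RefSeq tables. Promoter windows were found for 28 of 32 members, and not for SQLE, FDFT1, ACAT2 and FASN.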

Additional observations from a re-analysis of the deposited data

How the results depend on the processing

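No member was called under any of the 15 alternatives run, and the smallest adjusted p of a member was 0.70. All genes gave 0 calls too, except 1 without control replicate 3 (0 to 1 over single arrays left out), and members' probe sets gave 0 under the alternatives run on them. Among 462 values of members, 38 had another sign than with all arrays and mean probe sets. The 462 include the variance estimates and the replicate block, which cannot change a difference, so only the other alternatives could turn a sign. The sign was kept throughout by 13 members: CYP51A1, ELOVL5, FASN, HMGCS1, LPIN1, LSS, MSMO1, MVD, SC5D, SQLE (0 on its brightest probe set), SREBF1, SREBF2 and STARD4. With the median of probe sets the sign turned for INSIG1 (0.040), FDFT1 (-0.040), FDPS (-0.11), IDI1 (-0.22), MVK (0.060), SCD (-0.023), FADS1 (0.027) and ELOVL6 (-0.13). With the brightest probe set it turned for FDFT1 (-0.013), FDPS (-0.030), DHCR7 (0.053), NSDHL (-0.10), EBP (-0.073), PMVK (-0.027), ACAT2 (-0.22), ACLY (0.0067), FADS1 (0.18), FADS2 (-0.17), ME1 (0.017) and GPAM (0.17). Without the dimmest 30% of probe sets it turned for NSDHL (-0.021), FADS1 (0.039) and ME1 (0.20). Leaving out single arrays spanned -0.013 to 0.17 for ACAT2, -0.014 to 0.22 for FADS2, -0.042 to 0.090 for ELOVL6, -0.11 to 0.048 for ME1, -0.0041 to 0.11 for FDPS, -0.0013 to 0.083 for ACACA, -0.16 to 0.080 for GPAM and -0.11 to 0.054 for INSIG1. The sterol median (0.066) became -0.030 with the brightest probe set. The fatty acid median (-0.015) became -0.10 with the median of probe sets, 0.022 with the brightest probe set, 0.036 without the dimmest 30% of probe sets and -0.023 to 0.032 without single arrays. The cause was not tested. The replicate block gave 0 calls, with 1 member higher and 1 lower at an unadjusted p under 0.05. Its medians of 0.066 and -0.015 are unchanged by design, because a balanced block cannot alter a difference. Same-numbered arrays had correlations of deviations over genes of -0.032, -0.040 and 0.17, and other pairs of a control and an inhibitor array -0.21 to 0.21. With 3 arrays a group these values cannot decide whether same-numbered arrays were handled together, and the labels do not say. The filter on the dimmest 30% of genes left out FADS1, ELOVL5 and ME1.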

Other observations

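Genes of fatty acid oxidation, the pathway opposed to synthesis, had 7 of 11 measured members positive, none called and a median of 0.019. Without control replicate 1, 4 of the 11 were positive and the median was -0.025. HADHA, a subunit of the mitochondrial trifunctional protein, had 9.52, 9.58 and 9.58 in control and 9.64, 9.61 and 9.70 in inhibitor arrays. Its groups did not overlap, and its difference was 0.094 (SE 0.083). ACADVL, the long-chain dehydrogenase that acts before it, had 8.85, 8.86 and 8.81 in control and 8.73, 8.75 and 8.69 in inhibitor arrays. These groups did not overlap either, on the opposite side, with a difference of -0.12 (SE 0.082).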
